A study of Mus musculus with 9 samples.

Results

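The phagocyte NADPH oxidase was described here through 6 genes, chosen by name: *Cybb*, *Cyba*, *Ncf1*, *Ncf4*, *Rac2* and *Hvcn1*. Each gene was read from the probe set annotated to its symbol alone that had the highest mean over the 9 arrays. Of the 6 genes, 5 were measured by such a probe set, out of 17097 genes measured in the same way, and *Ncf1* was not analysed here. All mice were male C57Bl/6J animals, 10 to 12 weeks old, injected into the striatum on one side and perfused with saline. The groups were LPS at 4 d, LPS at 1 d and PBS at 4 d. There were 3 arrays in each group, and each array measured RNA pooled in equal amounts from 3 mice. LPS, from *Escherichia coli*, is a bacterial cell wall lipid that activates innate immune cells, and PBS is the vehicle. The tissue was a block of brain around the injection site, so the RNA came from all of its cells. No group received PBS for 1 d, so in the comparison of LPS at 1 d with PBS the effects of LPS and of the time since the injection cannot be told apart.

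The oxidase moves electrons from NADPH across the membrane of a phagosome or of the cell surface onto oxygen, which makes superoxide. Its membrane core, flavocytochrome b558, holds the catalytic subunit gp91phox (NOX2, encoded by *Cybb*) and its partner p22phox (*Cyba*). In resting phagocytes the cytosolic subunits, among them p47phox (*Ncf1*) and p40phox (*Ncf4*), stay apart from this core, and on activation they join it together with a Rac GTPase, of which *Rac2* encodes the form found in blood cells. The proton channel HVCN1 lets out the protons that are left behind in the cell, which allows the flow of electrons to go on. In the brain, microglia and infiltrating myeloid cells are the main cells that carry this enzyme.

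All values below are log2 expression values per probe set. A gene was called changed where limma's Benjamini-Hochberg adjusted p over 45037 probe sets was under 0.05 and the fold change was at least 1.5. The level of nonspecific signal, called background here, was 3.49, the highest mean among 23 nonspecific control probe sets, and 31.3% of genes had a mean over the 9 arrays at or below it. Over all probe sets, arrays of the same group correlated at 0.992 to 0.994, and the median of an array lay between 4.32 and 4.37.

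At 4 d after LPS, 5 of the 5 measured genes were higher than after PBS, and at 1 d after LPS, 4 of 5 were higher than after PBS. Over all genes, 4.21% were called higher at 4 d and 3.86% at 1 d, while 0.205% were called lower at 4 d and 0.532% at 1 d. Between the 2 times after LPS, *Hvcn1* alone was called, higher at 4 d, and over all genes 1.84% were called higher and 1.37% lower. Across the 3 groups, 5 of 5 genes differed by limma's moderated F-test, against 7.67% of all genes. These comparisons share arrays, those of PBS or of LPS, and are not independent. In RNA from a block of tissue, more cells of a type and more RNA per cell cannot be told apart.

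**Figure D1:**
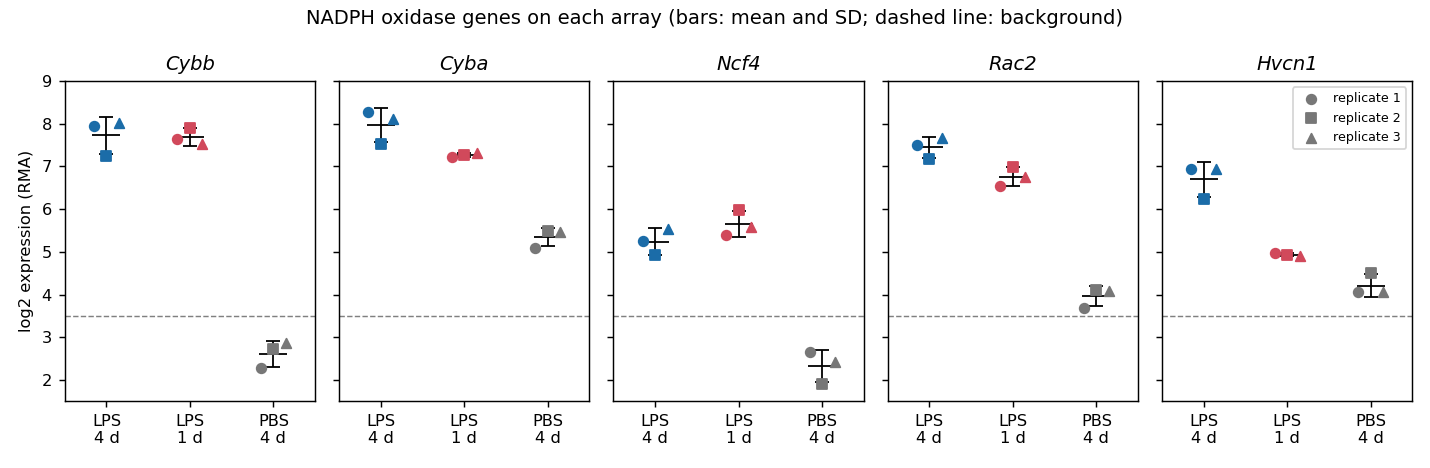
Log2 expression (y axis) of the 5 measured NADPH oxidase genes on each array of the LPS 4 d, LPS 1 d and PBS groups (x axis). Points are arrays, with one symbol for each replicate number, bars are the mean and SD of 3 arrays, and the dashed line is background (3.49). The PBS arrays of *Cybb* and *Ncf4* lie below the line, and *Hvcn1* is the gene whose LPS arrays at 1 d lie close to those of PBS.

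*Cybb*, which encodes the catalytic subunit, had the largest change of the 5 genes. Its log2 values were 7.94, 7.23 and 8.02 on the LPS 4 d arrays, 7.63, 7.91 and 7.52 on the LPS 1 d arrays, and 2.27, 2.72 and 2.86 after PBS. The LPS arrays of both times overlapped each other and lay far above the PBS arrays, all of which were below background. The difference from PBS was 5.12 on the log2 scale at 4 d (SE 0.23, adjusted p = 7.09e-06) and 5.07 at 1 d (SE 0.23, adjusted p = 6.62e-06). Since the PBS level has only an upper bound, the fold is given against background, and *Cybb* was at least 18.9-fold higher at 4 d and at least 18.4-fold higher at 1 d. Between the 2 times after LPS it differed by 0.04 (95% interval -0.47 to 0.56, adjusted p = 0.962), and the sign of this difference turned when single arrays were left out.

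A further pair of probe sets annotated to *Cybb* gave the same calls at lower values. The first had 6.16, 5.46 and 6.43 on the LPS 4 d arrays, 5.92, 6.23 and 5.71 on the LPS 1 d arrays, and 2.33, 1.82 and 2.12 after PBS, and was at least 5.76-fold higher at 4 d and at least 5.52-fold higher at 1 d than after PBS. The second had 6.35, 5.40 and 6.48 on the LPS 4 d arrays, 5.72, 6.12 and 5.70 on the LPS 1 d arrays, and 2.47, 2.70 and 3.08 after PBS, and was at least 6.01-fold higher at 4 d and at least 5.11-fold higher at 1 d. On both, replicate 2 was the lowest array at 4 d and the highest at 1 d, as on the first probe set of *Cybb*. Their differences between 4 d and 1 d were 0.06 and 0.23, and neither was past the test.

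The RefSeq promoter windows of *Cybb* and *Cyba* are shown because both membrane subunits were higher at both times, and because genes for factors that act on the human *CYBB* promoter in myeloid cells (PU.1, IRF1 and IRF8) were also measured. Each window runs 5′ to 3′ over 300 bases, 250 before the transcript start that the table uses and 50 after it, in build GRCm38.p6. For *Cybb* this start lies inside the annotated gene and not at its outer end. The windows are chrX:9469275-9469574 (minus strand) for *Cybb* and chr8:122432891-122433190 (minus strand) for *Cyba*. Capitals mark the matches to 3 motifs that were searched on both strands.
Cybb: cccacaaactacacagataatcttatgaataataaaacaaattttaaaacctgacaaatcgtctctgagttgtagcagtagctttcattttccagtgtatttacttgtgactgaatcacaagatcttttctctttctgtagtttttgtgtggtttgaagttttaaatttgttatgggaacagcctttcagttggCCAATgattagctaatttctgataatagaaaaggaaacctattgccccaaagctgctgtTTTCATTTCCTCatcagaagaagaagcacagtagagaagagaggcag
Cyba: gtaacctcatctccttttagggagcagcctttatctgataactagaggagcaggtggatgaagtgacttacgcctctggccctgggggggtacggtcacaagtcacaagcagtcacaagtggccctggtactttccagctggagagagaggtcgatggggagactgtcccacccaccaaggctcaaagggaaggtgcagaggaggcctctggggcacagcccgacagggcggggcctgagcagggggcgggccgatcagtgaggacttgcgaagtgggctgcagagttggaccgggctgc
The motifs were the core of a PU.1 site, GAGGAA, a composite site at which PU.1 and an IRF can bind side by side (GGAA, then 2 bases of any kind, then GAAA), and the CCAAT box. The *Cybb* window held the first at bases 10 to 15 and the second at bases 4 to 13, counted from 1 at that start, both on the minus strand and overlapping each other, so that the second run of capitals reads as their complement. It held CCAAT at bases -56 to -52, before the start, on the plus strand. No match to any of the 3 was found in the *Cyba* window, nor in that of *Ncf1*, the third gene with a window in the table used here. Of 32851 windows of the same length, 28.3% held GAGGAA, 2.72% the composite and 37.4% CCAAT. A match of letters is a description of the window and was not tested for binding.

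*Cyba*, which encodes p22phox, the partner that stabilises gp91phox and anchors the cytosolic subunits, had log2 values of 8.26, 7.52 and 8.12 on the LPS 4 d arrays, 7.22, 7.26 and 7.32 on the LPS 1 d arrays, and 5.10, 5.48 and 5.47 after PBS. None of the 3 groups overlapped another. The gene was 6.14-fold higher at 4 d (log2 change 2.62, SE 0.19, adjusted p = 6.98e-05) and 3.78-fold higher at 1 d (log2 change 1.92, adjusted p = 0.000355) than after PBS. Its level after PBS was above background, unlike that of *Cybb*. Between 4 d and 1 d after LPS it differed by 0.70 (95% interval 0.28 to 1.12), which was not past the test (adjusted p = 0.116). This difference was past the test with an intensity trend in limma (adjusted p = 0.0193) and without replicate 2 of LPS at 4 d (0.93, adjusted p = 0.0110).

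*Ncf4* encodes p40phox, the cytosolic subunit that binds phosphatidylinositol 3-phosphate on phagosomes. Its log2 values were 5.26, 4.92 and 5.54 on the LPS 4 d arrays, 5.39, 5.99 and 5.58 on the LPS 1 d arrays, and 2.66, 1.91 and 2.41 after PBS. As for *Cybb*, the arrays of the 2 times after LPS overlapped and all PBS arrays were below background. The difference from PBS was 2.91 at 4 d (SE 0.23, adjusted p = 0.000134), at least 3.37-fold higher, and 3.33 at 1 d (SE 0.23, adjusted p = 4.73e-05), at least 4.48-fold higher. *Ncf4* was the only one of the 5 genes with a lower mean at 4 d than at 1 d. The difference was -0.41, its 95% interval ran from -0.94 to 0.11, and it was not past the test (adjusted p = 0.507).

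*Rac2* encodes the Rac GTPase of blood cells that switches on the assembled oxidase. It had 7.51, 7.17 and 7.65 on the LPS 4 d arrays, 6.55, 6.99 and 6.75 on the LPS 1 d arrays, and 3.69, 4.10 and 4.09 after PBS. The 3 groups did not overlap. *Rac2* was 11.2-fold higher at 4 d (log2 change 3.49, SE 0.17, adjusted p = 8.82e-06) and 6.99-fold higher at 1 d (log2 change 2.81, adjusted p = 2.20e-05) than after PBS. The difference of 0.68 between 4 d and 1 d (95% interval 0.30 to 1.06) was not past the test (adjusted p = 0.0891), and was past it with an intensity trend (adjusted p = 0.0186). A second probe set of *Rac2* lay below background on all 9 arrays, between 1.66 and 2.72, and was not past the test at 4 d (adjusted p = 0.0795) or at 1 d (adjusted p = 0.0797). When both probe sets were averaged, the change of *Rac2* was 2.07 at 4 d and 1.73 at 1 d, past the test at both times.

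*Rac1*, the widely expressed Rac that can also serve NADPH oxidases, was not called at either time. Its arrays lay between 10.69 and 10.80 at 4 d after LPS, between 10.66 and 10.71 at 1 d after LPS, and between 10.67 and 10.70 after PBS. The change from PBS was 0.05 at 4 d (95% interval -0.11 to 0.21, adjusted p = 0.771) and -0.00 at 1 d (95% interval -0.16 to 0.16, adjusted p = 0.996). Changes smaller than these bounds cannot be told from 0 with 3 arrays a group.

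*Hvcn1*, which encodes the voltage-gated proton channel, was called higher at 4 d compared with both other groups. Its log2 values were 6.94, 6.23 and 6.93 on the LPS 4 d arrays, 4.97, 4.94 and 4.91 on the LPS 1 d arrays, and 4.07, 4.51 and 4.06 after PBS. Every array at 4 d lay more than 1 log2 unit above every array at 1 d, while the arrays at 1 d lay just above those of PBS without overlap. At 4 d it was 5.61-fold higher than after PBS (log2 change 2.49, SE 0.20, adjusted p = 0.000129). At 1 d its difference from PBS was 0.73 (95% interval 0.28 to 1.17), which did not pass the test (adjusted p = 0.0925). That call changed with an intensity trend (adjusted p = 0.0280) and, at the same 0.73, without replicate 2 of LPS at 4 d (adjusted p = 0.0176), an array that enters this comparison only through the shared estimate of the spread. Between 4 d and 1 d after LPS, tested directly, *Hvcn1* was 3.39-fold higher (log2 change 1.76, 95% interval 1.32 to 2.21, adjusted p = 0.00192).

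**Figure D2:**
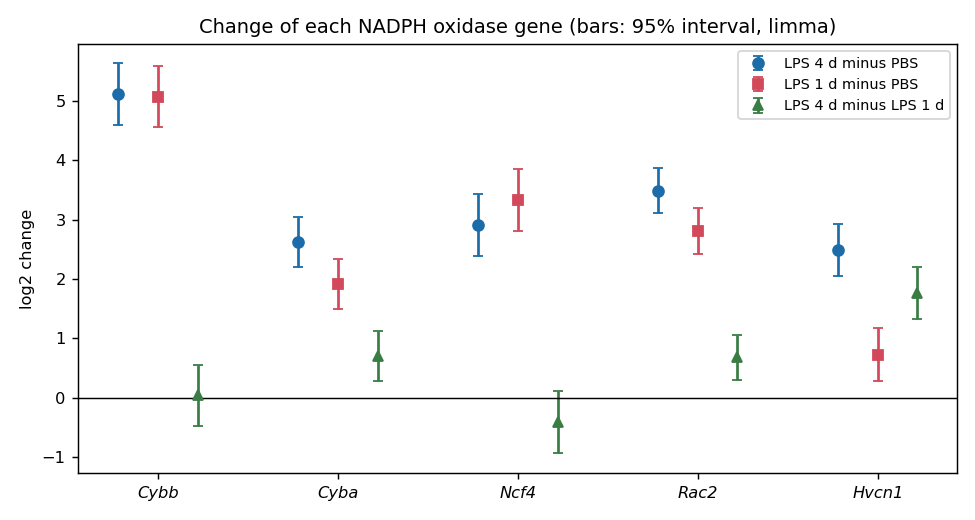
Log2 change (y axis) of each NADPH oxidase gene (x axis) at 4 d after LPS minus PBS, at 1 d after LPS minus PBS, and at 4 d minus 1 d after LPS. Points are limma estimates from 3 arrays a group and bars are 95% intervals. *Hvcn1* has the largest difference between the times (1.76), that of *Cybb* is near 0 (0.04), and that of *Ncf4* is below 0 (-0.41) with an interval that includes 0.

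The differences between the times were also set against each other within the same arrays, for 10 pairs of genes. The increase of *Hvcn1* between 1 d and 4 d exceeded that of *Ncf4* by 2.18, that of *Cybb* by 1.72, that of *Rac2* by 1.08 and that of *Cyba* by 1.06 on the log2 scale. For *Cyba* and *Rac2* the difference was 0.02. With 3 arrays in each group, the smallest two-sided p of an exact permutation test is 0.1. The test gave 0.1 in 9 of the 10 pairs and 1 for *Cyba* and *Rac2*, with 0.111 in those 9 pairs after Benjamini-Hochberg adjustment over the 10 pairs. None of these differences between genes could therefore pass 0.05.

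Within groups, the same arrays were low or high for several of the genes. At 4 d after LPS, replicate 2 was the lowest array for 5 of 5 genes, with *Cybb* at 7.23 and *Hvcn1* at 6.23, and it was also the lowest for 5 of 6 leukocyte and macrophage markers, *Csf1r* being the exception. Its mean log2 value was also the lowest for 7 monocyte and recruited macrophage markers (5.96, against 6.34 and 6.24). It was in the middle for 11 neutrophil markers (4.07, against 4.43 and 3.96) and for 8 microglial markers (7.16, against 7.32 and 7.13). At 1 d after LPS, replicate 2 was the highest array for *Cybb*, *Ncf4* and *Rac2*, and it had the highest mean log2 value of 11 neutrophil marker genes (6.23, against 5.31 and 5.56 on the other two) and the lowest of 8 microglial markers (5.30, against 6.02 and 5.96). Of the 6 leukocyte and macrophage markers, this array was the lowest for 3 and the highest for 2. How often these arrays were lowest or highest over all genes is not given here. After the group means were removed, the deviations of the 9 arrays correlated at 0.896 for *Cybb* and *Rac2*, 0.874 for *Cybb* and *Cyba*, 0.849 for *Cyba* and *Hvcn1* and 0.763 for *Cyba* and *Rac2*. Those of *Ncf4* correlated with the other 4 genes at 0.05 to 0.33. These values describe 9 arrays that share their pools and scaling, and were not tested.

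**Figure D3:**
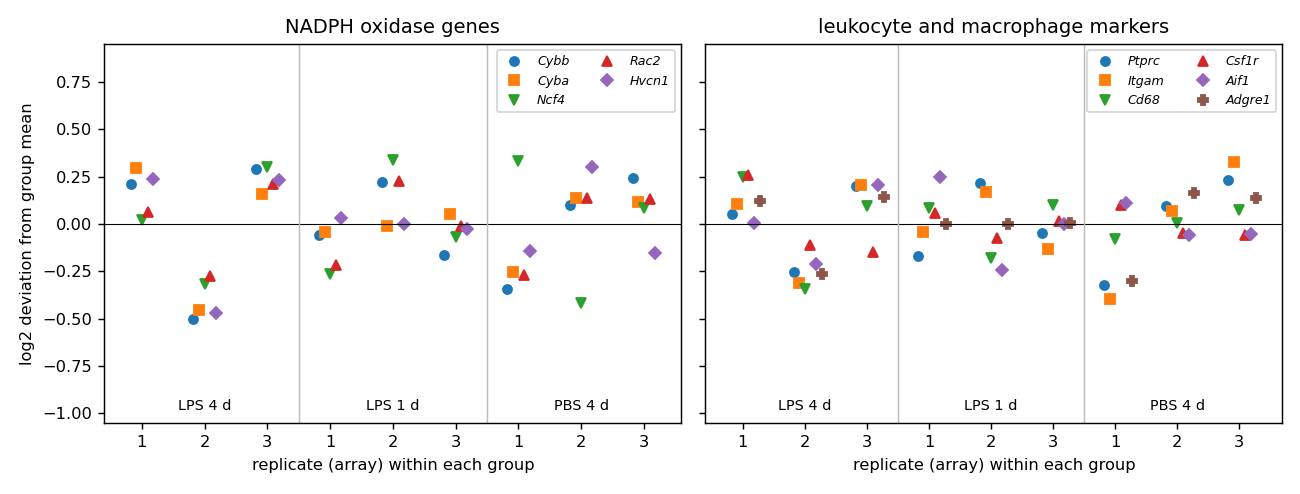
Deviation of each array from its group mean on the log2 scale (y axis) for the 5 NADPH oxidase genes (left) and 6 leukocyte and macrophage markers (right), with arrays by replicate number within the LPS 4 d, LPS 1 d and PBS groups (x axis). Each symbol is one gene. Replicate 2 of LPS at 4 d lies below 0 for all 5 oxidase genes, with *Cybb* and *Hvcn1* among the lowest points.

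For each gene, the 3 genes with the most similar course over the 9 arrays were found by Pearson correlation across 17097 genes. This describes which genes shared the pattern of the 3 groups and carries no test. Closest to *Cybb* were *Bcl2a1a* (r = 0.999), *H2-D1* and *Fcgr2b* (both 0.996), an inhibitory Fc receptor gene. *Bcl2a1a* and *H2-D1* belong to families of near-identical copies, so their probe sets may measure other copies too. For *Rac2* they were *Ptprc* (0.998), which encodes CD45, *Fcer1g* (0.998), the signalling chain of Fc receptors, and *Arhgdib* (0.996), which encodes a GDP dissociation inhibitor of blood cells. *Cyba* was nearest to *Sat1* (0.993), the lysosomal protease gene *Ctsl* (0.993) and the Fc receptor gene *Fcgr3* (0.992). *Ncf4* was nearest to the cholesterol hydroxylase gene *Ch25h* (0.994), the ceruloplasmin gene *Cp* (0.993) and the astrocyte filament gene *Gfap* (0.992). The neighbours of *Hvcn1* were *Kctd12*, *Cd84*, which encodes a receptor of leukocytes, and the ferritin light chain gene *Ftl1* (all 0.991). These 3 genes had larger changes at 4 d than at 1 d, as *Hvcn1* did, with *Cd84* at 1.79 at 4 d and 0.49 at 1 d.

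Other genes of the pathway were described through 6 lists, of which 49 of 61 genes were measured. At 4 d after LPS, 18 of the 49 were higher than after PBS, and at 1 d 17 were. None was lower at either time, and none was lower at an unadjusted p under 0.05, by an ordinary analysis of variance without moderation or with an intensity trend. Between 4 d and 1 d after LPS, 4 were higher at 4 d and 2 were lower. Over all genes, 4.21% were called higher than after PBS at 4 d and 3.86% at 1 d, and 0.205% and 0.532% lower. Between the times, 1.84% of all genes were called higher at 4 d and 1.37% lower. The same shares stand beside the counts of each list and of the markers below that limma called as fitted. They do not apply to counts at an unadjusted p, by the ordinary analysis of variance or with an intensity trend. For those counts no share over all genes is given here, so they cannot be judged against all genes. The median log2 change over all genes was -0.02 for LPS 4 d against PBS, -0.03 for LPS 1 d against PBS and 0.00 for LPS 4 d against LPS 1 d.

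**Figure D4:**
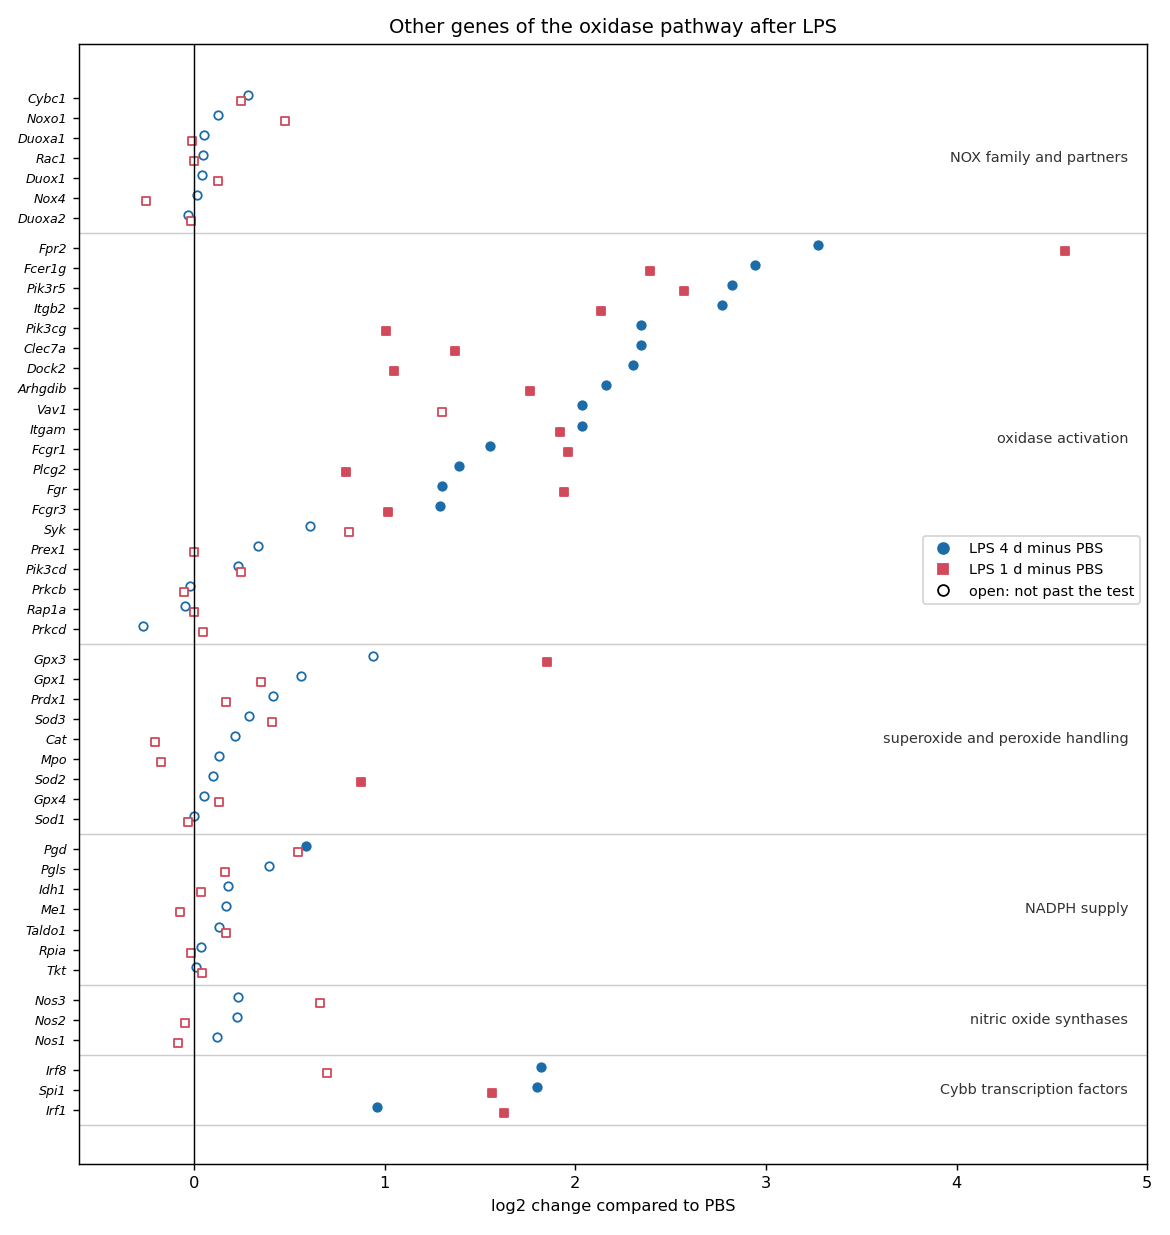
Log2 change compared to PBS (x axis) of 49 other genes of the oxidase pathway (y axis, grouped into 6 lists) at 4 d (circles) and at 1 d (squares) after LPS. Filled symbols passed limma's test and open symbols did not, and changes of genes at background after PBS are fitted values. Filled symbols are frequent among the genes of oxidase activation and absent from the NOX family and its partners.

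Of the other members of the NOX family and their partners, 7 of 12 were measured, and 0 were called in any comparison, by limma as fitted, with an intensity trend or by the ordinary analysis of variance. An unadjusted p under 0.05 was reached by 1 gene at 4 d and 1 at 1 d, both higher, and by 0 in the comparison of the times. *Nox4*, *Duox1*, *Duoxa1* and *Duoxa2* were at background in all 3 groups. *Cybc1*, whose product is a chaperone of the gp91phox and p22phox dimer, had a change of 0.28 at 4 d (adjusted p = 0.302) and 0.25 at 1 d (adjusted p = 0.389). Its level was above background in all groups, and the change was not past the test at either time.

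The list of oxidase activation holds the receptors, kinases and exchange factors that lead to phosphorylation of the cytosolic subunits and to loading of Rac. Of its 20 measured genes, 14 were higher at 4 d and 13 at 1 d, with median changes of 1.79 at 4 d and 1.17 at 1 d, or 1.47 and 1.03 with the 4 genes that have only a bound set to it. *Fpr2*, a receptor for formyl peptides of bacteria, rose by 3.27 at 4 d (adjusted p = 0.000625, at least 8.08-fold) and by 4.57 at 1 d (adjusted p = 6.53e-05, at least 19.8-fold). *Fcer1g* rose by 2.94 at 4 d (adjusted p = 8.72e-06) and by 2.39 at 1 d (adjusted p = 1.78e-05). *Pik3r5*, a regulatory subunit of phosphoinositide 3-kinase gamma, was at background after PBS and rose at least 5.95-fold at 4 d and at least 4.99-fold at 1 d, and *Itgb2*, the beta chain of leukocyte integrins, rose by 2.77 on the log2 scale at 4 d and 2.13 at 1 d. *Vav1*, an exchange factor for Rac that was named after its values were seen, was at background after PBS. It was called higher at 4 d (at least 2.06-fold, adjusted p = 0.00641), a call lost by the ordinary analysis of variance (adjusted p = 0.0513), and was not past the test at 1 d (at least 1.23-fold, adjusted p = 0.0580). Its difference between the times was not past the test (adjusted p = 0.355). At 1 d it was called with an intensity trend (adjusted p = 0.0113) and without replicate 3 of LPS at 4 d (adjusted p = 0.0164) or replicate 2 of PBS (adjusted p = 0.0363). With no probe sets at background it was called at 1 d too (adjusted p = 0.0373).

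Between 4 d and 1 d after LPS, 3 genes of this list were higher at 4 d and 0 were lower, against 10 and 3 when p was left unadjusted at 0.05, 2 and 0 by the ordinary analysis of variance, and 5 and 1 with an intensity trend. The 3 genes, named after their values were seen, were *Pik3cg*, the catalytic subunit of phosphoinositide 3-kinase gamma (1.34, adjusted p = 0.00151), *Dock2*, an exchange factor for Rac in leukocytes (1.26, adjusted p = 0.000974), and *Clec7a*, which encodes the fungal receptor Dectin-1 (0.98, adjusted p = 0.0162). All 3 were also higher at both times than after PBS. The call of *Clec7a* was lost by the ordinary analysis of variance (adjusted p = 0.0866), without replicate 3 of LPS at 4 d and without any single array of LPS at 1 d (adjusted p = 0.0562 to 0.0640), while *Pik3cg* and *Dock2* stayed past the test in all of these. *Fpr2* had the opposite sign between the times, -1.30, without passing the test (adjusted p = 0.108). With an intensity trend it was called lower at 4 d (adjusted p = 0.0161).

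The next list holds enzymes that make peroxide out of superoxide or break peroxide down. Of 9 measured, 0 were higher at 4 d and 2 were higher at 1 d than after PBS, where 3 at 4 d and 4 at 1 d had an unadjusted p under 0.05, and 1 at 4 d was called with an intensity trend. At 4 d, *Gpx1* (0.56, adjusted p = 0.0127) and *Prdx1* (0.41, adjusted p = 0.0322) missed a call only through the fold limit. *Gpx3*, an extracellular glutathione peroxidase, had a change of 0.94 at 4 d (adjusted p = 0.0951) and rose by 1.85 at 1 d (adjusted p = 0.00332). *Sod2*, the mitochondrial superoxide dismutase, had log2 values of 8.54, 8.66 and 8.78 on the LPS 4 d arrays, 9.25, 9.63 and 9.43 on the LPS 1 d arrays, and 8.58, 8.62 and 8.48 after PBS. The arrays at 1 d stood above both other groups, which overlapped. *Sod2* was higher at 1 d than after PBS by 0.87 (adjusted p = 0.00189) and lower at 4 d than at 1 d, with a difference of -0.77 (adjusted p = 0.00708). Its probe sets disagreed in size, and their mean was not called at 1 d (0.43, adjusted p = 0.0753) nor between the times (-0.55, adjusted p = 0.0351, short of the fold limit). *Mpo*, which encodes the myeloperoxidase of neutrophil granules, was at background in all groups.

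Of 7 measured genes for the supply of NADPH, 1 was higher at 4 d and 0 at 1 d than after PBS. It was *Pgd*, of the pentose phosphate pathway, which rose by 0.59 at 4 d (adjusted p = 0.00255) and stood 0.54 higher at 1 d with an adjusted p of 0.00356, short of a fold change of 1.5. With p left unadjusted at 0.05, 3 were higher at 4 d, 1 was at 1 d, and 2 were higher at the later time, and both the trend fit and the ordinary analysis made the same 1 and 0 calls against PBS. *Pgls* stood 0.40 higher at 4 d than after PBS with an adjusted p of 0.0318, also short of a fold change of 1.5. The call of *Pgd* at 4 d sits at the fold limit and was lost with arrays centred on their medians, with the mean of all probe sets, without replicate 1 or replicate 3 of LPS at 4 d and without replicate 1 of PBS. Of 3 nitric oxide synthase genes, 0 were called in any comparison by limma as fitted or by the ordinary analysis of variance. With an intensity trend *Nos3* was called at 1 d (adjusted p = 0.0141), as it was without replicate 1 of LPS at 1 d (0.78, adjusted p = 0.0396). The same call was made with no probe sets at background (adjusted p = 0.0296) and with the mean of all probe sets (adjusted p = 0.0465). With p left unadjusted at 0.05 there was 1 higher at each time, and 1 higher and 1 lower between the times. *Nos2*, the inducible form in macrophages, was at background in all 3 groups, *Nos3* had changes of 0.23 at 4 d and 0.66 at 1 d, and *Nos1* had changes of 0.12 at 4 d and -0.08 at 1 d.

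The 3 transcription factor genes chosen for *Cybb* were each called higher at 4 d, and 2 of them at 1 d. *Irf8*, a myeloid factor, had 6.79, 6.21 and 6.64 on the LPS 4 d arrays, 5.44, 5.32 and 5.51 on the LPS 1 d arrays, and 4.60, 4.54 and 5.04 after PBS. It rose by 1.82 at 4 d (adjusted p = 0.000389), had a change of 0.70 at 1 d (adjusted p = 0.0665), and was higher at 4 d than at 1 d by 1.12 (adjusted p = 0.00993). *Irf1*, induced by interferons, had 6.27, 6.01 and 6.13 on the LPS 4 d arrays, 6.63, 6.94 and 6.85 on the LPS 1 d arrays, and 5.02, 5.12 and 5.40 after PBS. It rose by 0.96 at 4 d (adjusted p = 0.00279) and by 1.63 at 1 d (adjusted p = 8.92e-05), and was lower at 4 d than at 1 d, with a difference of -0.67 (adjusted p = 0.0286). The calls of *Irf8* and *Irf1* between the times ran in opposite directions. Both were lost by the ordinary analysis of variance (adjusted p = 0.0693 for *Irf8* and 0.0989 for *Irf1*). The call of *Irf8* was also lost without replicate 2 of LPS at 1 d (1.07, adjusted p = 0.0504). That of *Irf1* was lost without any single array of LPS at 4 d, without replicate 2 or 3 of LPS at 1 d and without replicate 2 of PBS (-0.73 to -0.60, adjusted p = 0.0510 to 0.115). At 1 d, *Irf8* was called higher than after PBS with an intensity trend (adjusted p = 0.0172), and without replicate 2 of LPS at 4 d (adjusted p = 0.0344) or replicate 3 of PBS (0.85, adjusted p = 0.0357). It was also called there with no probe sets at background (adjusted p = 0.0399) and with the mean of all probe sets (adjusted p = 0.0342). *Spi1*, which encodes PU.1, rose by 1.80 at 4 d (adjusted p = 0.00176, at least 2.90-fold) and by 1.56 at 1 d (adjusted p = 0.00363, at least 2.46-fold), and its difference of 0.24 between the times was not past the test (adjusted p = 0.717).

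Markers of the cells that could carry the oxidase also differed between the groups, and not all in the direction of the oxidase genes. Of 6 leukocyte and macrophage markers, among them *Itgam*, which the list of oxidase activation also holds, 6 had risen by 4 d and 5 by 1 d compared to PBS, and 5 were higher at 4 d than at 1 d. Their summed linear level was 1835 to 2380 at 4 d after LPS, 847 to 861 at 1 d after LPS and 298 to 321 after PBS. Among 8 microglial markers, 4 rose at 4 d and 3 fell at 1 d compared to PBS, and 7 were higher at 4 d than at 1 d, with summed levels of 1633 to 1862 at 4 d, 478 to 725 at 1 d and 774 to 807 after PBS. *Hvcn1* was higher at 4 d than at 1 d, as were these 7 microglial markers and 5 of 6 leukocyte and macrophage markers. So were 1 of 3 B cell markers and 1 of 3 endothelial markers. Compared to PBS, 2 of 11 neutrophil genes rose at 4 d and 7 rose at 1 d, and 5 were lower at 4 d than at 1 d, with summed levels of 310 to 538 at 4 d, 1733 to 4635 at 1 d and 111 to 191 after PBS. *Camp* and *Elane* of this list were at background in all groups. For monocytes and recruited macrophages, 5 of 7 markers rose at 4 d and 6 at 1 d, and between the times 2 were higher and 2 lower at 4 d, with summed levels of 1790 to 2515 at 4 d, 1171 to 1190 at 1 d and 206 to 237 after PBS. The largest part of these LPS sums was *Lyz2*, higher at 4 d like *Ms4a7*, while *Chil3* and *Plac8* were lower (-3.09 and -2.37). The mean log2 value of the 7 markers overlapped between the times, at 5.96 to 6.34 at 4 d and 6.14 to 6.18 at 1 d. By the ordinary analysis of variance, 1 neutrophil gene was higher at 4 d and 5 at 1 d than after PBS, and 1 was lower at 4 d than at 1 d. Of the microglial markers it called 3 higher at 4 d and 3 lower at 1 d than after PBS, and 3 higher at 4 d than at 1 d. The part of each cell type in the changes of the oxidase genes was not tested.

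Lymphocyte markers were mostly at background. All 4 T cell markers were so in all groups, as were 2 of 3 B cell markers, a cell type in which HVCN1 is also made. The third, *Cd79b*, was at background after PBS and at 1 d after LPS. It was called higher at 4 d than after PBS (at least 1.34-fold, adjusted p = 0.00154) and than at 1 d (at least 1.34-fold, adjusted p = 0.0130). Of 5 striatal and neuronal markers, 0 were called in any comparison and 0 were at background, so the markers of the labelled brain tissue were present in all groups. At an unadjusted p under 0.05, 1 of them was lower at 1 d than after PBS and 1 higher at 4 d than at 1 d. Of 4 astrocyte markers 2 were higher at each time than after PBS, and of 3 endothelial markers 1 was higher at 4 d than after PBS and than at 1 d. Of 2 oligodendrocyte markers 0 were called, though 2 were lower at 1 d at an unadjusted p under 0.05. Of 2 red blood cell markers 1 was lower at 4 d than at 1 d.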

How the data were processed

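The authors extracted total RNA from brain tissue, hybridised biotin-labelled RNA to Affymetrix HT MG-430 PM arrays and applied RMA with Affymetrix Expression Console (version not given in the sources used here). They deposited one log2 value for each probe set and array, and RMA was not repeated. Without 104 control entries, 45037 probe sets were fitted with limma 3.58.1 in R 4.3.3, with one mean for each of 3 groups over 9 arrays and empirical Bayes moderation, on 9.02 degrees of freedom, 6 of them residual. Adjusted p values are Benjamini-Hochberg values over all probe sets, and a call needed a fold of at least 1.5 beside an adjusted p under 0.05. Gene symbols came from the platform annotation, which gave 28898 probe sets 1 symbol, 551 several and 15588 none. Through Entrez identifiers, 28689 were matched to the mouse RefSeq gene table and 0 symbols changed. Each gene was represented by its probe set with the highest mean.

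Folds against a group at background used the higher of that mean and 3.49, and are given as at least that size. Named were the oxidase genes with all their probe sets, the 3 genes most correlated with each, up to 4 called genes with the largest change in each list, all genes of lists of 3, and markers. The genes and lists were chosen with earlier results of these data known. The p values measure the spread between RNA pools, and the number of arrays limits precision. Array batches were not given in the sources used here. Promoter windows came from a table of RefSeq starts (GRCm38.p6) in which 3 of the 6 genes had a window. The fit was tested on simulated data. Alternatives were an intensity trend with robust moderation, an ordinary one-way analysis of variance, a replicate block, quantile normalization, median centring, no probe sets at background, the mean of all probe sets of a gene, a fold of 2 and leaving out each array. Python 3.11.15 with pandas 2.3.3 and matplotlib 3.10.9 was used for motifs and figures.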

Additional observations from a re-analysis of the deposited data

Results flagged for a closer look

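These genes were picked out because their changes after LPS differed between 4 d and 1 d by limma's direct test of LPS at 4 d against LPS at 1 d. *Hvcn1*, the proton channel gene, was higher at 4 d by 1.76 on the log2 scale (adjusted p = 0.00192). Among the other genes of the pathway, *Pik3cg* was higher at 4 d by 1.34 (adjusted p = 0.00151), *Dock2* by 1.26 (adjusted p = 0.000974), *Irf8* by 1.12 (adjusted p = 0.00993) and *Clec7a* by 0.98 (adjusted p = 0.0162). *Sod2* was lower at 4 d, with a difference of -0.77 (adjusted p = 0.00708), and so was *Irf1*, with -0.67 (adjusted p = 0.0286). For all 7 genes the 3 arrays at 4 d did not overlap the 3 arrays at 1 d. The genes were picked by that test on the same arrays, so this separation is no further support for it.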

How the results depend on the processing

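The counts of oxidase genes called were 5 of 5 at 4 d under every alternative and 4 or 5 of 5 at 1 d. Between 4 d and 1 d, 1 gene was called, 3 with an intensity trend and robust moderation, and 1 to 2 when single arrays were left out, with 2 without replicate 2 of LPS at 4 d. *Cybb* changed sign between the times, over a range of -0.10 to 0.29 with single arrays left out: -0.06 without replicate 1 of LPS at 4 d, -0.10 without replicate 3 of LPS at 4 d and -0.04 without replicate 3 of LPS at 1 d. Pathway genes higher than after PBS numbered 18 at 4 d, or 16 to 19 under the alternatives, and 17 at 1 d, or 15 to 20. Those higher at 4 d than at 1 d numbered 4, but 2 by the ordinary analysis of variance and 3 with the replicate block or a fold of at least 2. They numbered 5 with quantile normalization or the mean of all probe sets, and 6 with an intensity trend or no probe sets at background. With single arrays left out they numbered 2 to 6, the 2 without replicate 2 of LPS at 1 d. Those lower numbered 2, but 4 with the trend, 1 by the ordinary analysis, 1 with the mean of all probe sets, 0 with a fold of at least 2 and 1 to 2 with single arrays left out. The count was 1 without replicate 2 or 3 of LPS at 4 d, replicate 2 or 3 of LPS at 1 d or replicate 2 of PBS. *Rac1*, near 0 at 1 d (-0.0013), turned to 0.0042 with all probe sets averaged and ranged over -0.015 to 0.012 with single arrays left out, and *Nos1* turned to -0.025 at 4 d with all probe sets averaged. The cause of these changes was not tested. Repeated quantile normalization and median centring moved the median of all genes by at most 0.02.

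Deviations of 9 same-numbered pairs of arrays correlated at -0.03 to 0.02, and those of the other pairs at -0.03 to 0.04. Of the 9 arrays, 5 correlated best with their own number. Whether replicate numbers pair the arrays was not tested. With the replicate block, 696 genes were called for LPS 4 d against PBS, 708 for LPS 1 d against PBS and 450 for LPS 4 d against LPS 1 d, where the fit without it called 755, 751 and 549. The block left the oxidase counts at 5, 4 and 1, lost the calls of *Clec7a* and *Irf1* between the times, made a call of *Irf8* at 1 d (adjusted p = 0.0425) and gave 1 pathway gene lower at 4 d than at 1 d.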
